A study of Homo sapiens with 4 samples.

Results

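Pogo and Tigger transposase-derived genes were followed in HEK293T cells, a human embryonic kidney line, with and without disruption of MORC2. The 10 genes were CENPB, POGZ, POGK, JRK, JRKL, TIGD1, TIGD2, TIGD5, TIGD7 and CENPBD1P, taken by symbol from the 28775 genes of the RNA-seq count table. The list was chosen by these same counts, because CENPBD1P and JRKL had higher values in edited than in WT cells, so the differences between genotypes, and any threshold they passed, are given for all 10 as a description, with no p-value and in support of nothing. The data comprised 2 MORC2 KO and 2 WT samples of poly-A RNA. MORC2 KO replicate 1 was made with gRNA 1 and replicate 2 with gRNA 2, each delivered with Cas9 protein by electroporation and kept as a bulk population, not a clone. WT cells carried no gRNA, no drug or other treatment is given for either genotype, and the methods name the edited cells HEK293 where the labels name HEK293T. Totals ranged from 53970043 to 64312514 assigned read pairs per sample.

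Pogo and Tigger elements are DNA transposons of the Tc1/mariner superfamily, which move by cutting and pasting their DNA with a transposase. Their host-adopted descendants typically keep a DNA-binding region related to that of CENP-B, and many keep remnants of the transposase domain. CENP-B binds the CENP-B box of centromeric alpha satellite DNA, POGZ is a zinc finger protein that binds heterochromatin protein 1 (HP1), and POGK carries a KRAB domain. MORC2, the targeted gene, encodes a chromatin ATPase that works with the HUSH silencing complex.

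MORC2 RNA was lower in both edited populations. Its counts were 3064 and 3637 in MORC2 KO replicates 1 and 2, against WT counts of 5131 and 4669. The level in CPM, counts scaled to the TMM-adjusted size of each library, was 53.1 ± 2.69 (SD, n = 2) after editing and 87.0 ± 1.06 in WT. This gave a log2 fold change of -0.71 ± 0.06 (SE; edgeR quasi-likelihood F-test, Benjamini-Hochberg adjusted p = 0.000137). MORC2 shares 23.3% of its exonic bases with the antisense gene MORC2-AS1, and strand was not used in counting. VIM (547 to 585 CPM), LIN28B (82.9 to 91.8 CPM) and NEFL (63.5 to 68.7 CPM), genes known in HEK293-type cells, were present in all 4 samples, whereas the leukocyte marker PTPRC had 0 to 1 counts and the hepatocyte marker ALB 6 to 14.

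Across the 16675 genes tested, 98 were called higher in MORC2 KO cells (0.588% of genes) and 5 lower (0.03%), or 103 in either direction (0.618%), at an adjusted p under 0.05. With offsets for GC content and length the calls split into 177 higher and 92 lower. The counts also changed when a library was left out: 1397 higher and 2117 lower without MORC2 KO replicate 1, 149 and 9 without WT replicate 1, 30 lower without MORC2 KO replicate 2 and 14 lower without WT replicate 2. In all, 20.5% of the genes tested were called without MORC2 KO replicate 1. At an unadjusted p under 0.05, 8.14% of the 16675 genes were higher and 6.17% lower, or 14.3% in either direction. Both MORC2 KO samples lay above both WT samples for 24.1% of genes, and below for 23.4%.

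CENPBD1P had the greatest fold change of the 10 genes, with TIGD2, JRKL and TIGD7 after it. The log2 fold changes of the other 6 genes lay between -0.05 and 0.11. All 10 passed the filter on low counts. In the fit over all genes 3 of them, CENPBD1P, TIGD2 and JRKL, were past the threshold and higher, 0 were past it and lower, and 6 had both MORC2 KO samples above both WT samples, 1 had both below and 3 overlapped. Nothing is read from these counts against the background, since the same contrast chose the genes. The median log2 fold change was 0.08 over the 10 genes and 0.01 over all genes tested. Over the 8 genes other than CENPBD1P and JRKL it was 0.05.

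**Figure D1:**
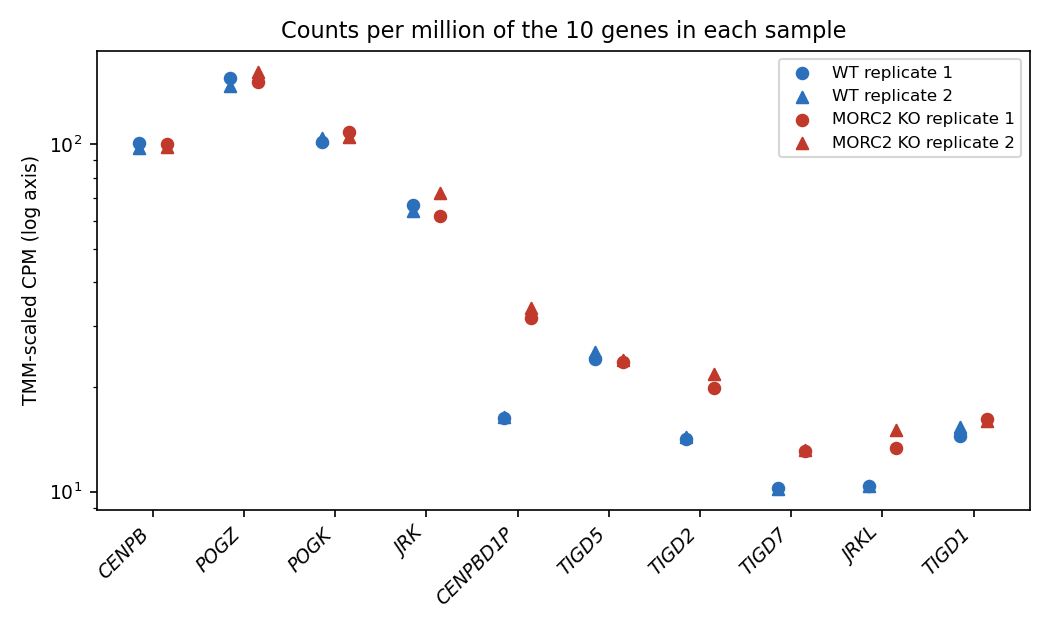
CPM (TMM-scaled, log axis) of the 10 genes in each sample, with WT in blue, MORC2 KO in red, replicate 1 as circles and replicate 2 as triangles. The red and blue points are widest apart for CENPBD1P (32.7 against 16.3 CPM on average), are also apart for TIGD2, JRKL and TIGD7, and lie close together or mixed for CENPB, POGZ and JRK.

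CENPBD1P is annotated as a transcribed pseudogene named for a CENP-B DNA-binding domain. MORC2 KO replicates 1 and 2 held 1888 and 2236 counts of it, and WT replicates 1 and 2 held 967 and 873. Both KO samples lay well above both WT samples. The mean level was 32.7 ± 1.60 CPM in edited cells and 16.3 ± 0.107 CPM in WT cells (SD, n = 2), or 200.3% of WT, with a log2 fold change of 1.00 ± 0.07 (SE). The lower KO sample exceeded the higher WT sample by 0.94 on the log2 CPM scale. In the annotation of the table the gene is 1 exon interval of 2722 bases on the reverse strand of chromosome 16 (T2T-CHM13 build, chr16:96056017-96058738), and it shares no exonic base with another gene. Gene positions given for the other members are on the same build. Its log2 fold change ranged from 0.95 to 1.04 over the 17 alternative settings.

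TIGD2, a Tigger-derived gene whose cellular role is little known, had counts of 1188 and 1436 in MORC2 KO replicates 1 and 2 and of 845 and 765 in WT. The KO and WT samples did not overlap. Means were 20.8 ± 1.32 CPM in MORC2 KO and 14.3 ± 0.122 CPM in WT (SD, n = 2), with a log2 fold change of 0.54 ± 0.08 (SE). Over the alternative settings it ranged from 0.48 to 0.59. The gene lies on the forward strand at chr4:92442241-92445972 and has 3 exon intervals, of which the longest holds 2835 of 3389 exonic bases.

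JRKL, a relative of the jerky gene JRK, had counts of 799 and 994 in MORC2 KO replicates 1 and 2 and of 617 and 553 in WT. Its 2 WT samples were nearly equal in CPM and its 2 KO samples lay above them, replicate 2 the higher. Means were 14.2 ± 1.19 CPM in MORC2 KO and 10.4 ± 0.0149 CPM in WT (SD, n = 2), with a log2 fold change of 0.45 ± 0.09 (SE). Over the alternative settings it ranged from 0.37 to 0.52. It was short of the threshold without WT replicate 1 (0.45), without WT replicate 2 (0.45), with loess offsets on abundance (0.41) and with at least 10 counts required in every sample (0.46). JRKL is 1 exon interval of 3549 bases on the forward strand (chr11:96396017-96399565).

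TIGD7 had counts of 781 and 870 in MORC2 KO replicates 1 and 2 and of 611 and 541 in WT. The replicates of each genotype lay close together in CPM, and the genotypes did not overlap. Means were 13.1 ± 0.0747 CPM in MORC2 KO and 10.2 ± 0.0732 CPM in WT (SD, n = 2), with a log2 fold change of 0.36 ± 0.09 (SE). It was short of the threshold in the fit over all genes, but past it in 4 of 17 alternative settings. In these the log2 fold change was 0.35 without MORC2 KO replicate 1 and 0.36 without MORC2 KO replicate 2. It was 0.36 with no filter on low counts, and 0.36 with a crossed pairing of replicates added after the data were seen. TIGD7 has 2 exon intervals at chr16:3325858-3332480 on the reverse strand, and 15.8% of its exonic bases lie in exons of ZNF263. Read pairs in shared exons are counted for neither gene without strand, so the TIGD7 level rests on the rest of its exons.

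The 250 bases before the annotated starts of TIGD2, JRKL and TIGD7 are shown because these 3 genes have a listed promoter and were higher in both MORC2 KO samples by more than the replicates differed. They are from RefSeq on GRCh38.p14, each 5′ to 3′ on the strand of its gene, at chr4:89110919-89111168 (forward) for TIGD2, chr11:96389763-96390012 (forward) for JRKL and chr16:3305431-3305680 (reverse) for TIGD7. Capitals mark the ETS-type motif CCGGAAG on either strand.
TIGD2: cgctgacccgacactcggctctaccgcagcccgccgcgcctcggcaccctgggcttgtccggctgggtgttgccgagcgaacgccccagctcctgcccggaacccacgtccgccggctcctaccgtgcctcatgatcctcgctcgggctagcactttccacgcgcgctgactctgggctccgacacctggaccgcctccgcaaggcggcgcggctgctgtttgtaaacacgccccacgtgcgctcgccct
JRKL: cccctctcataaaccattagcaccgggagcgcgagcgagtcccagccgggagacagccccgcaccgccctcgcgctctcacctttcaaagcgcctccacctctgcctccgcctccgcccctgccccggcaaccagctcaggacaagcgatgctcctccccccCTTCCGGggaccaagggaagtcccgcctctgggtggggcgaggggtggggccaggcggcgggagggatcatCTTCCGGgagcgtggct
TIGD7: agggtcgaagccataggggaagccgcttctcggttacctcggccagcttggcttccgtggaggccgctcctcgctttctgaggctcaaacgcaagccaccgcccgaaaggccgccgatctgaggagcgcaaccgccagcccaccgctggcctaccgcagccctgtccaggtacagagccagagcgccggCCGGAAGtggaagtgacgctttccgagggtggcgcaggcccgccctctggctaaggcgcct
JRKL has the motif at 2 places, whose first bases lie at -88 and -17 from the start, both on the opposite strand. TIGD7 has it once, at -61 on its own strand. The first TIGD2 promoter has none, and a second TIGD2 start has it at 11, after the start. The motif was in 5 of the 9 promoters (300 bases each) of the 7 genes with an entry, against 10.3% of all 35116 promoters. That share was not matched for CpG content, and the motif itself holds a CpG. Each of the 5 belongs to a different gene, among them POGK and TIGD1, with log2 fold changes of 0.05 and 0.11. A match describes the letters and says nothing of binding.

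Each of the 9 promoters held more CpG dinucleotides than the median promoter. The CENPB promoter held 55 CpG dinucleotides, more than 99.6% of all promoters, and the POGK promoter 39. TIGD2 had 38 and 42 at its 2 starts, TIGD1 35, TIGD7 28 and JRKL 27. POGZ had 15 and 25, and the median over all promoters was 14. None of the 9 promoters held TATAAA (11.5% of all promoters) or TGCGCATG (2.18%). CCAAT, found in 34.6% of all promoters, occurred in 1 of the 9, the first of POGZ, at 3 places.

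The second POGZ promoter held the core of the CENP-B box, the letters TTCG, any 4 bases, A, any 2 bases and CGGG, searched on both strands. It is shown because CENP-B recognises this box. The match lies on the strand opposite to POGZ, from -170 to -156, and only 24 of 35116 promoters (0.0683%) hold one. Its surroundings on the POGZ strand (GRCh38.p14 chr1:151459330-151459354, reverse) are given with the matching letters in capitals.
POGZ: tccacCCCGAATCACTCGAAcccga
POGZ RNA itself differed little between the genotypes, as described next.

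The remaining 6 genes had log2 fold changes near 0. CENPB had counts of 5966 and 6495 in MORC2 KO replicates 1 and 2 and of 6001 and 5203 in WT, and the genotypes overlapped. Means were 99.04 ± 1.04 and 99.3 ± 2.19 CPM, with a log2 fold change of -0.0039 ± 0.056 (SE) whose sign depended on the scaling and on the samples used. CENPB, the best known gene of the family, lies at chr20:3814791-3817680 on the reverse strand as 1 interval of 2890 bases. POGZ had 9038 and 10678 counts after editing and 9236 and 7819 in WT cells, overlapping, with a log2 fold change of 0.05 ± 0.06. POGK had 6479 and 6918 counts against 6041 and 5524. The POGK samples did not overlap, but its log2 fold change was also 0.05 ± 0.06. These were the 2 genes of the family with most exon intervals, 19 for POGZ (chr1:150526433-150583190, reverse) and 6 for POGK (chr1:166185312-166202191, forward).

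JRK, whose mouse counterpart is the jerky epilepsy gene, had counts of 3722 and 4779 in MORC2 KO replicates 1 and 2 and of 3975 and 3423 in WT. The 2 KO samples differed by 0.22 on the log2 CPM scale and enclosed both WT samples. The log2 fold change was 0.04 ± 0.07 with all samples and -0.07 without MORC2 KO replicate 2. TIGD1 had counts of 969 and 1054 against 860 and 819, with the KO samples above the WT samples and a log2 fold change of 0.11 ± 0.08. For TIGD1, 44.97% of exonic bases lie in exons of CHRNG and MIR5001, mostly on the opposite strand, so its level rests on the rest of its 6675 bases (chr2:233030667-233037341, reverse). TIGD5, with 1416 and 1576 counts against 1436 and 1339, was the 1 gene with both KO samples below both WT samples, at a log2 fold change of -0.05 ± 0.07. JRK has 2 exon intervals (chr8:143801004-143813495, reverse) and TIGD5 has 1 (chr8:144747243-144752636, forward).

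**Figure D2:**
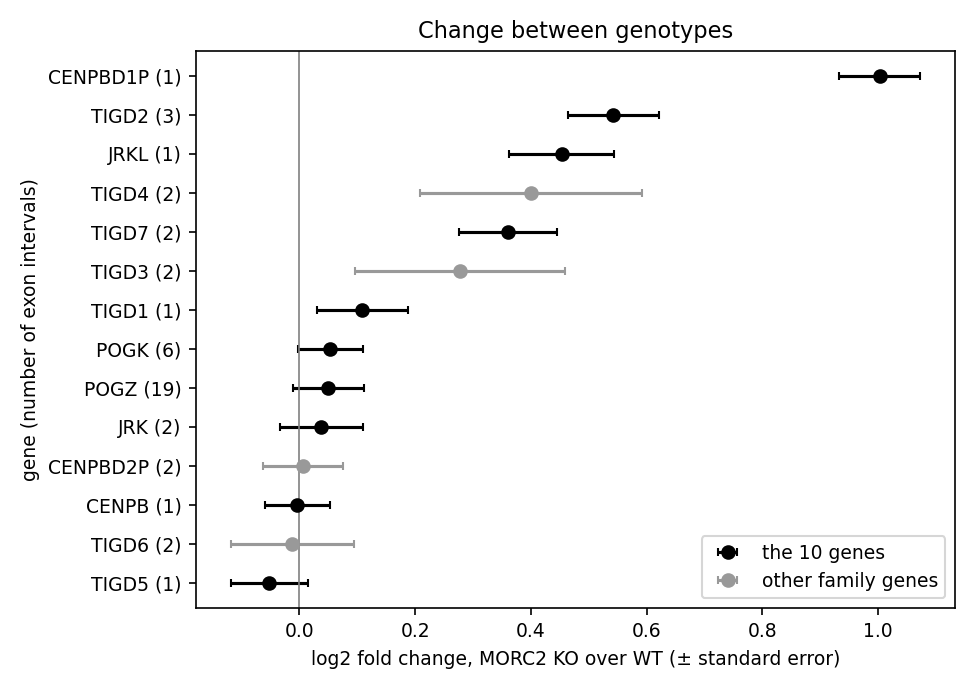
Log2 fold change of MORC2 KO over WT with its standard error (x axis) for the 10 genes in black and 4 other genes of the family in grey, with the number of exon intervals of each gene in parentheses. CENPBD1P stands at 1.00, TIGD2, JRKL and TIGD7 between 0.36 and 0.54, and the other 6 black points between -0.05 and 0.11.

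CENPB, CENPBD1P, JRKL, TIGD1 and TIGD5 have 1 exon interval, and their median log2 fold change was 0.11. The 5 genes with 2 or more intervals had a median of 0.05. Nothing is read from these medians, since CENPBD1P and JRKL were selected for their values. Over all 1004 tested genes with 1 interval, edgeR called 17 higher (1.69%) and 0 lower, against 0.588% higher over all genes, and their median on the log2 scale was 0.07, where that of all genes was 0.01. For those 1-interval genes the count at an unadjusted p under 0.05 was 117 higher and 43 lower. CENPBD1P and JRKL are among the 17 and the 117, and the comparison was not made without them.

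In WT cells the levels per kilobase (CPM per kb of exonic length) spanned a wide range. The WT counts behind these levels also enter the contrast by which the genes were chosen. CENPB was highest at 34.4 ± 0.757 CPM per kb (SD, n = 2), above 86.7% of all tested genes, then POGZ at 22.3 ± 0.868 and POGK at 17.9 ± 0.279. A step of 2.48 times separated POGK from JRK at 7.21 ± 0.193. CENPBD1P stood at 5.998 ± 0.0393 CPM per kb, near the middle of all tested genes. TIGD5 (4.57 ± 0.134), TIGD2 (4.22 ± 0.0360), TIGD7 (2.99 ± 0.0214), JRKL (2.92 ± 0.00420) and TIGD1 (2.24 ± 0.0991) followed. These levels divide by the full exonic length, although pairs in bases shared with other genes were not assigned. Such bases make up 44.97% of TIGD1 and 15.8% of TIGD7. The levels of these 2 genes may therefore be too low, and their places in the order are not settled. The 2 WT samples of each gene did not overlap with those of its neighbour in this order, but TIGD7 exceeded JRKL by only 1.02 times and TIGD5 exceeded TIGD2 by 1.08 times. The 4 genes with the greatest fold changes ranked from 5 to 9 in this order of 10. CENPB, POGZ and POGK, the first 3, had log2 fold changes of -0.0039, 0.05 and 0.05. Nothing is read from this, since the same WT counts enter both the levels and the fold changes. In MORC2 KO cells CENPBD1P reached 12.02 ± 0.589 CPM per kb, which placed it above JRK, and TIGD2 reached 6.14 CPM per kb, above TIGD5.

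**Figure D3:**
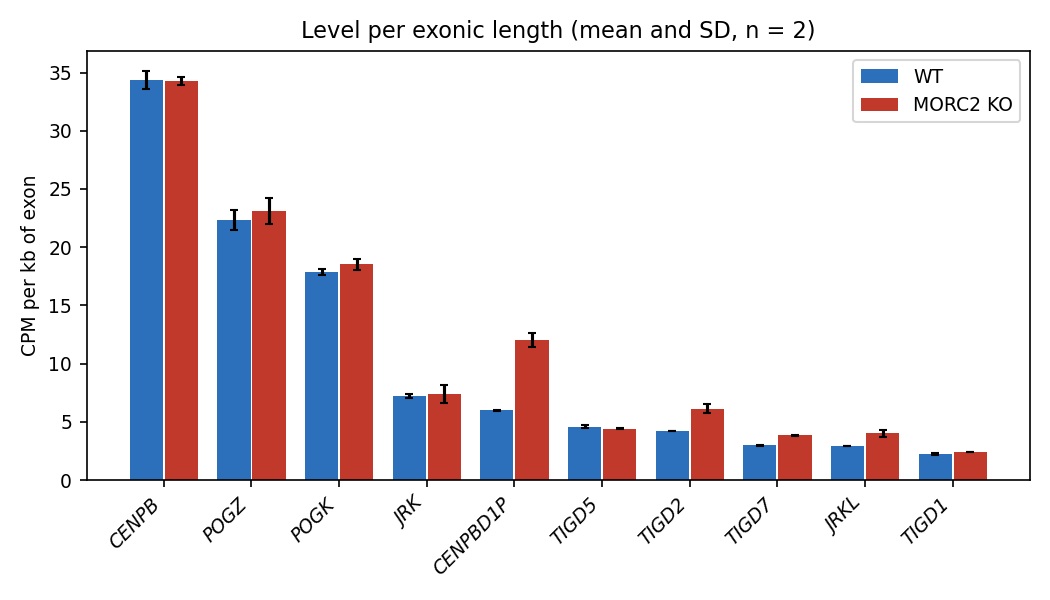
Mean level per kilobase of exon (CPM per kb, y axis from 0) in WT (blue) and MORC2 KO (red) cells, with bars for the SD of 2 samples, in the order of the WT level. CENPB, POGZ and POGK stand above the rest in both genotypes, and CENPBD1P goes from 5.998 to 12.02 CPM per kb. The length includes bases shared with other genes, so TIGD1 and TIGD7 may stand too low.

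Among the family's sequences, JRKL and TIGD2 were the closest pair. Their longest open reading frames, of 524 and 525 residues in GENCODE 29 transcripts, were identical at 325 of 519 aligned residues (62.6%), the highest share among the family's pairs. JRK was identical to it at 40.0% of 493 aligned residues, and TIGD7 at 34.9% of 476. The longest frame of CENPBD1P has only 187 residues, against 599 for CENPB and 1410 for POGZ. None of the 10 genes shared a 65-base stretch of transcript, the length of 1 read, with another gene of the family, so reads of JRKL and TIGD2 can be told apart at that length. CENPBD1P shared 3.91% of its stretches, with AFG3L1P alone, while TIGD7 shared 68.0%, with ZNF263 and ZNF75A. TIGD1 shared 18.6%, with EIF4E2 and MIR5001, and TIGD5 3.70%, with EEF1D.

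A common feature of the family was a gene starting close by on the opposite strand. Of the 10 genes, 7 had such a head-to-head partner within 1000 bp, at 67 to 416 bp, against 23.0% of all tested genes. TIGD2, POGZ and POGK had none. The window, and hence the partners, were chosen after their values were seen. CCDC82, a coiled-coil gene that starts 101 bp from JRKL, had counts of 1888 and 2242 in MORC2 KO replicates 1 and 2 and of 1587 and 1326 in WT. Both KO samples lay above both WT samples. Means were 32.8 ± 1.67 and 25.8 ± 1.24 CPM (SD, n = 2), with a log2 fold change of 0.34 ± 0.07 (SE; edgeR, adjusted p = 0.0482). The adjusted p ranged from 5.23e-06 to 0.405 over the alternatives, and the call was not made in 6 of 17, among them without WT replicate 2 (0.30, adjusted p = 0.405).

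ZNF75A, a zinc finger gene whose start lies 67 bp from that of TIGD7, also had both KO samples above both WT samples. Its KO samples held 1923 and 2181 counts and its WT samples 1568 and 1435, and its log2 fold change of 0.29 ± 0.06 missed the threshold (edgeR, adjusted p = 0.0775). Over the alternatives its log2 fold change ranged from 0.25 to 0.33, at 0.30 without MORC2 KO replicate 1 and 0.27 without MORC2 KO replicate 2. It passed in 5 of the 13 alternatives that kept every sample. These 5 include the looser threshold of 0.10, where the adjusted p was still 0.0775 (edgeR). They also include a crossed pairing of replicates, added after the data were seen, which called 10.3% of all genes. AFG3L1P, which starts 84 bp from CENPBD1P, had 2307 and 2695 counts after editing and 2361 and 1819 without it. These overlapped, with a log2 fold change of 0.10 ± 0.07 (edgeR, adjusted p = 0.543) beside 1.00 for CENPBD1P. The other 4 partners, CDC25B by CENPB, PSCA by JRK, EIF4E2 by TIGD1 and EEF1D by TIGD5, had log2 fold changes from -0.10 to 0.07, and none was called. Whether a member and its partner differed in response was not tested. Transcripts of ZNF75A, AFG3L1P, EIF4E2 and EEF1D share 65-base stretches with the member beside them, so reads of these pairs may not be fully separated.

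**Figure D4:**
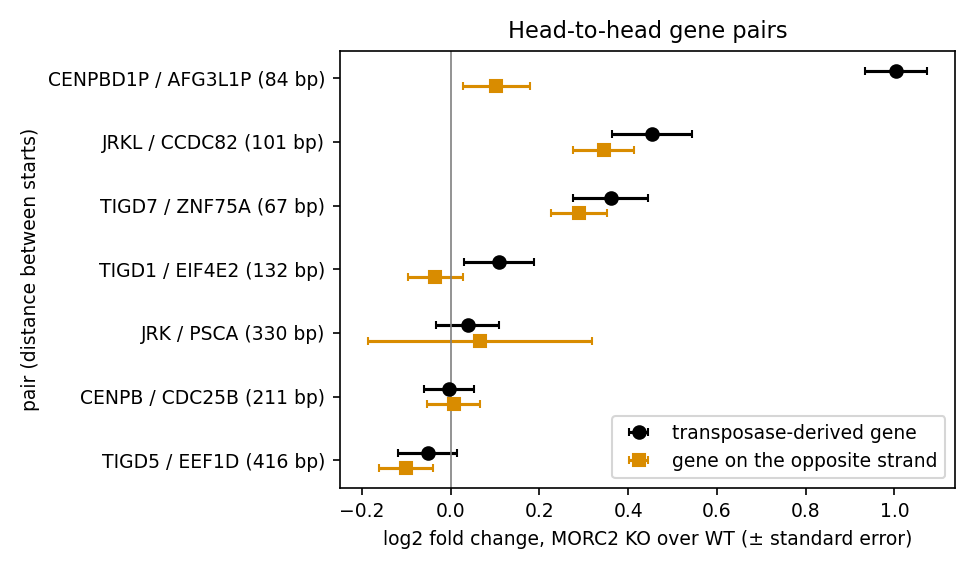
Log2 fold change of MORC2 KO over WT with its standard error (x axis) for 7 transposase-derived genes (black circles) and the gene starting on the opposite strand (orange squares), with the distance between the starts in bp. The squares beside JRKL and TIGD7 lie at 0.34 and 0.29, whereas the square beside CENPBD1P lies at 0.10, far below its circle at 1.00.

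Neighbours of the 10 genes on both sides were also taken. Among the 40 nearest tested genes (2 on each side of each of the 10 genes), 1 was called higher, the partner CCDC82, and 0 lower. Over all genes tested 0.618% were called. The 33 neighbours that were not partners held 0 calls by edgeR. Partners were defined after the values were seen, so nothing is read from this split. Over all 40, partners included, the median log2 fold change was 0.00, with a range from -0.36 to 0.75. At an unadjusted p under 0.05 there were 7, beside 14.3% of all genes. On its other side JRKL had CNTN5, 2628071 bp away, at a log2 fold change of 0.75 ± 0.47 (edgeR, adjusted p = 0.476). DEF8, 1715 bp from CENPBD1P, was at 0.06 (edgeR, adjusted p = 0.677). Taking all 53 tested genes within 100 kb instead also gave 1 call. Of the 40, 11 were called without MORC2 KO replicate 1, where 20.5% of all genes were, 2 without MORC2 KO replicate 2 and 0 without WT replicate 2.

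The 4 further genes of the family gave no call, beside 0.618% of all genes called. TIGD4 had 165 and 144 counts after editing and 121 and 90 in WT cells, with a log2 fold change of 0.40 ± 0.19 (edgeR, adjusted p = 0.366). TIGD3 had 129 and 145 against 99 and 103, at 0.28 ± 0.18 (edgeR, adjusted p = 0.497). For both, the KO samples lay above the WT samples, but with these low counts the standard errors were more than 2 times those of most of the 10 genes. TIGD6 stood at -0.01 and CENPBD2P at 0.01, both overlapping between genotypes. At an unadjusted p under 0.05, 0 of the 4 passed.

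Genes descended from other DNA transposons (hAT, piggyBac, P element, Harbinger and related families) were taken as the nearest counterpart. Of 24 listed, 21 were tested and 0 were called by edgeR, beside 0.618% of all genes. At an unadjusted p under 0.05, 5 of the 21 were higher and 0 lower, beside 8.14% higher and 6.17% lower of all genes. Their median log2 fold change was 0.07, against 0.01 for all genes. The smallest p belonged to FAM200C, of hAT origin, with 744 and 822 counts in KO samples, 515 and 528 in WT samples and a log2 fold change of 0.42 ± 0.10 (edgeR, adjusted p = 0.0894). The number called went to 5 without MORC2 KO replicate 1, where 20.5% of all genes were called, and to 1 without MORC2 KO replicate 2.

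Among genes working beside CENP-B and POGZ, none was called, where 0.618% of all genes were. At so low a share, an absence of calls in lists this short says little about these genes. Of 21 inner kinetochore and CENP-A loading genes, 0 were called by edgeR, 1 was higher and 2 lower at an unadjusted p under 0.05 (8.14% and 6.17% of all genes), and the median log2 fold change was -0.03. CENPX, a histone-fold kinetochore protein, had the smallest p, at -0.27 ± 0.08 (edgeR, adjusted p = 0.183). Without MORC2 KO replicate 1, 4 were called, in a fit that called 20.5% of all genes. Of 7 genes for HP1 proteins and POGZ partners, 0 were called by edgeR and 0 passed at an unadjusted p under 0.05, with a median of -0.03, and without MORC2 KO replicate 1 the number called was 2. CBX5, which encodes HP1 alpha, had the smallest p, at 0.17 ± 0.08 (edgeR, adjusted p = 0.375).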

How the data were processed

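Poly-A RNA of 2 MORC2 KO and 2 WT HEK293T samples was sequenced as paired 65-base reads. The authors aligned the reads to the T2T-CHM13 build with Subread 2.0.6 and deposited raw counts of read pairs per RefSeq gene, made with featureCounts. Per the file header, multi-mapping reads were counted, strand was not used, and pairs overlapping several genes were not assigned, so overlapping genes lose reads. From these counts, genes were filtered (filterByExpr), TMM-scaled (factors 0.986 to 1.03) and tested with the quasi-likelihood F-test of edgeR 4.0.16 in R 4.3.3 on genotype, with Benjamini-Hochberg adjustment over 16675 genes. Standard errors were the log2 fold change over the root of the F statistic. The script was tested on simulated data. With 2 samples a group, SDs are imprecise, and p-values measure the spread between these samples. Levels between genes are CPM divided by the full exonic length, bases shared with other genes included. Promoters came from RefSeq tables (7 of the 10 genes matched). Open reading frames were read from GENCODE 29 transcripts and aligned locally with Biopython 1.88, in place of the planned protein alignment.

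The members and gene lists were chosen with earlier results of these data known. The genes named are the 10, MORC2, the other 4 of the family, the called genes or the gene with the smallest p of each list, called neighbours, the nearest tested genes of CENPBD1P and JRKL, and, chosen after their values were seen, head-to-head partners. Alternatives were library size alone, loess offsets on abundance, GC and length offsets, other count filters, other edgeR dispersion settings, DESeq2 1.42.0, a replicate block, an adjusted p under 0.10 and leaving out each replicate.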

Additional observations from a re-analysis of the deposited data

How the results depend on the processing

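MORC2 was called lower in all 17 alternative settings. The number of the 10 genes past the threshold, a description since they were chosen on these counts, was 2 to 4 with single replicates left out. The same omissions gave 88 to 1397 higher and 9 to 2117 lower calls over all genes (20.5% of genes without MORC2 KO replicate 1), 0 to 5 calls among other DNA transposon genes, 0 to 4 among kinetochore genes, 0 to 2 among HP1 and POGZ partners and 0 to 11 among neighbours. A lone sample is then assumed to vary like the other group. Over all genes, higher and lower calls were 177 and 92 with GC and length offsets, and 463 and 182 with no filter on low counts. Lower calls were 17 with DESeq2 and 15 at an adjusted p under 0.10. Calls among other DNA transposon genes were 1 with GC and length offsets, 3 with no filter and 1 at an adjusted p under 0.10, and among kinetochore genes 1 with GC and length offsets and 1 with no filter. Neighbours called were 2 with library size alone, 2 with no filter and 2 at an adjusted p under 0.10, but 0 with loess offsets, with at least 10 counts in every sample, with the newer quasi-likelihood form and with robust dispersions. The log2 fold change of CENPB turned to 0.035 with library size alone and 0.030 with loess offsets, and ranged from -0.028 to 0.018 with single replicates left out (above 0 without MORC2 KO replicate 2 or WT replicate 1). That of JRK ranged from -0.074, without MORC2 KO replicate 2, to 0.13. The cause of these changes was not tested.

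The samples share only replicate numbers, and deviations of same-numbered samples correlated at -0.12 over genes. With the replicate block there were 237 higher and 42 lower calls, 1 among other DNA transposon genes and 2 among neighbours. With the replicate block and GC and length offsets there were 178 higher and 60 lower, 1 among other DNA transposon genes, 1 among kinetochore genes and 0 among neighbours. The crossed pairing, added after seeing the data, gave 903 higher and 809 lower calls, 4 among other DNA transposon genes, 3 among kinetochore genes, 1 among HP1 and POGZ partners and 5 among neighbours. Low counts limit TIGD3, TIGD4, PSCA and CNTN5, and 2 samples a group limit every comparison.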
